A study of Mus musculus with 48 samples.

Results

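The 8 cells described here are the daughters of 4 divisions of haematopoietic stem cells (HSCs) from aged mice, divisions 3a1, 3a3, 3a4 and 3a5, out of 48 daughter cells and 24 divisions profiled by single-cell ATAC sequencing. Within each division the daughters were chosen by their number of accessible regions: the one with more regions at a q value under 0.01, which the study calls the progenitor, is the richer daughter here, and its sister is the poorer daughter. They are 4 of the 5 aged divisions of library set 3, the number with which their library names begin, and 4 of all 10 aged divisions. Because the number of regions decided which daughter is which, every difference between richer and poorer sisters is given as a description and carries no test.

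The study asks whether HSCs divide into unlike daughters and whether this changes with age. The cells were long-term HSCs, sorted as Lin- Sca-1+ c-Kit+ cells without CD34 and Flk2, from mice of 20 to 26 months. Each was kept alone in culture up to its first division. Between 40 and 44 h the sisters were parted, and each became a library of its own. The young divisions used for comparison came from mice of 10 to 12 weeks and were handled alike.

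The records give the strain as B6.SJL, and the methods name C57BL/6 mice for this assay. The medium held 10% FBS with cytokines that included SCF and G-CSF, each at 50 ng/ml in the records and at 100 ng/ml in the methods, under 3% O2 and 5% CO2. Which mouse each division came from is not stated, and divisions are counted as replicates here. Which daughter carries the letter A or B has no stated meaning, and in divisions 3a3 and 3a4 daughter A was the richer cell, in 3a1 and 3a5 daughter B.

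HSCs can renew themselves and can give rise to every blood lineage, and a division may in principle hand different fates to its daughters. The small GTPase Cdc42 sets up cell polarity and, with the ligand Wnt5a that raises its activity, has been tied to the loss of polarity in aged HSCs. In the assay a transposase cuts into accessible DNA and leaves sequencing adapters, so the number of insertions at a place reflects how reachable the DNA is and how deeply the library was sampled. Promoters of active genes, above all those rich in CpG dinucleotides, are reachable in most cell types, whereas many lineage genes are reached only where their factors bind.

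A region is a stretch that the authors' peak caller listed in a cell, with its pileup (the number of overlapping insertions at its summit) and a q value. The lists are not confined to significant regions. They held 77487 regions in the poorer and 182889 in the richer daughter of division 3a1. In division 3a3 the poorer daughter had 38895 and the richer 123088 listed regions. Division 3a4 had 104234 and 265618, and division 3a5 had 116350 and 246972. The richer daughters thus listed 2.36, 3.16, 2.55 and 2.12 times as many regions as their sisters, before any threshold was set.

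The pileup summed over all listed regions differed by about as much as the region number, by factors of 2.47, 3.05, 2.73 and 2.25. The covered length was 42.1 Mb against 17.9 Mb in division 3a1, 28.6 against 9 Mb in 3a3, 61.8 against 24.3 Mb in 3a4 and 52.7 against 27.3 Mb in 3a5. Mean pileup per listed region hardly moved, from 1.46 to 1.59 over the 8 cells. Sequencing depth per cell is not used here, and how far the number of regions follows depth was not tested.

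The threshold changes the size of the gap between sisters. At q under 0.05 the poorer and richer daughters had 21288 and 58686 regions in division 3a1, 965 and 38807 in 3a3, 35697 and 96526 in 3a4, and 35704 and 80456 in 3a5. At q under 0.01 these numbers were 1040 and 7053, 367 and 3296, 1148 and 12974, and 1319 and 12139. The ratios that chose the daughters were therefore 6.78, 8.98, 11.3 and 9.20, several times the ratios of the full lists.

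A step in the lowest pileup that passed goes with this. At q under 0.01 it was 3 in all 4 richer daughters and 4 in all 4 poorer daughters. At q under 0.05 it was 2 in 7 of the 8 cells and 3 in the poorer daughter of 3a3. This is a minimum, and many regions of the same or a higher pileup missed the threshold. That cell therefore lost its regions of 2 insertions as a class, and its ratio at q under 0.05 was 40.2, against 2.25 to 2.76 in the other 3 divisions. Its part in many of the results is given below by leaving division 3a3 out.

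The remaining aged division of set 3 lies just outside the rule. Daughters 3a2A and 3a2B had 4538 and 5678 regions at q under 0.01, a ratio of 1.25, and 127401 and 132526 listed regions. Just inside the rule is division 3a1 with its ratio of 6.78. The near-equal division serves below as a description of what sisters of like region number share, and being 1 division it gives no spread.

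**Figure D1:**
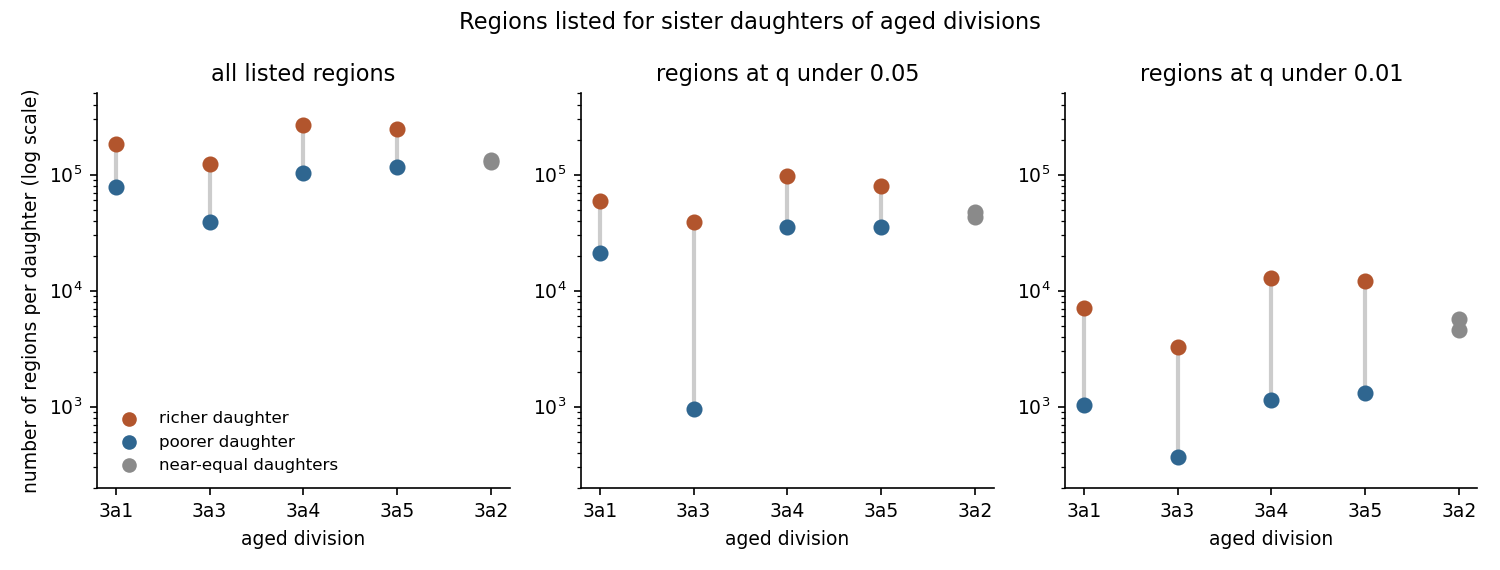
Number of regions per daughter (log scale) for the 4 unequal aged divisions and the near-equal division 3a2, over all listed regions and at 2 thresholds of q. Points are single cells and grey bars join sisters. The gap between sisters is widest at q under 0.01, with ratios of 6.78 to 11.3, and in division 3a3 at q under 0.05.

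Before the promoters are compared, 1 property of the lists has to be stated, since it bears on every count of what cells have in common. The same regions, to the base at both ends, recur in different cells far more often than nearby positions do. Of the listed regions of the 4 poorer daughters, 85.6%, 66.7%, 83.5% and 85.5% (3a1, 3a3, 3a4 and 3a5) had the same start and end in at least 1 of the other 9 aged cells of the set. In the richer daughters these shares were 88.4%, 85.7%, 76.3% and 76.4%. The libraries may share material, which would change what an overlap between sisters means. Where this sharing comes from was not tested.

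Sharing was not confined to sisters, although the sister came first among the other 9 cells for the poorer daughters of 3a1 and 3a4. The poorer daughter of 3a1 had 50.6% of its regions at identical positions in its sister, and 7.89% to 49.1% in single cells of other divisions. For 3a3 the share in the sister was 26.5% and in other divisions 15.7% to 39.2%, for 3a4 53.9% against 9.45% to 50.3%, and for 3a5 51.2% against 9.36% to 56.5%. Sharing reached across ages as well, with up to 55.9% of the regions of an aged daughter, 3a4A, found at identical positions in a single young cell of set 3.

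Regions of 150 bp hold a single insertion position and show the pattern at the resolution of a base. In division 3a1, 47.5% of the 28519 such regions of the poorer daughter had a region of that kind with the same start in the sister, whereas offsets of 1 to 20 bp in either direction gave 0.0764% on average. The corresponding values were 25.4% against 0.0610% in 3a3, 51.7% against 0.0814% in 3a4 and 53.2% against 0.0851% in 3a5. In the richer daughters of the other divisions, the mean share at the same start was 42.4%, 37.3%, 42.7% and 42.7%. In division 3a3 non-sisters shared more single-insertion starts than the sister did. Many counts below that rest on overlap between cells are therefore given also without regions at shared positions. These are regions with the same start and end in another aged cell of the set. Leaving them out also removes what the sister alone shares, so it lowers the overlap of sisters by its own construction. Shared positions were kept in the shares by pileup, in the counts with the strongest regions and in the base composition and motifs of the classes. They were also kept in all results at q under 0.01.

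**Figure D2:**
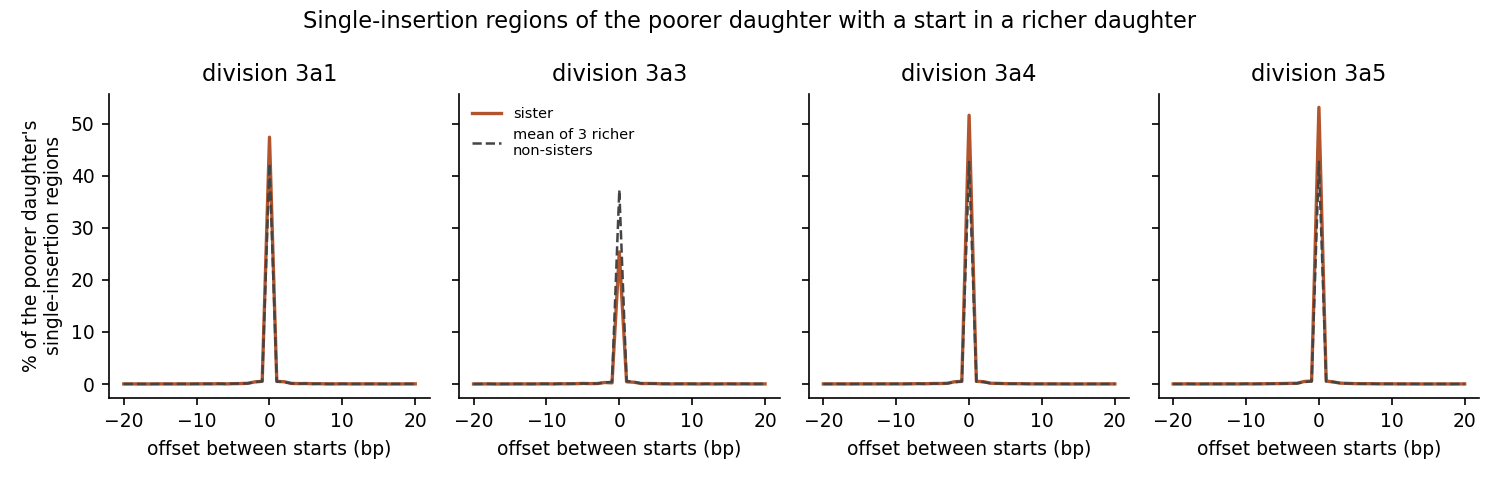
Share of the single-insertion regions of each poorer daughter that have such a region in a richer daughter at a given offset between starts, in bp. Solid lines show the sister and dashed lines the mean of the richer daughters of the other 3 divisions. Both peak at offset 0, at 25.4% to 53.2% for sisters, and lie near 0 at all other offsets.

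A promoter is called open in a cell here where a region at q under 0.05 overlaps the 1000 bp on either side of a RefSeq transcription start of the gene. This was asked for 26180 genes, 21000 of them protein-coding. Open promoters numbered 3597 in the poorer and 7608 in the richer daughter of division 3a1, 505 and 6583 in 3a3, 5295 and 10185 in 3a4, and 5531 and 9167 in 3a5. The near-equal daughters had 7134 and 7591. The gap in promoters was smaller than the gap in regions, with ratios of 2.12, 13.0, 1.92 and 1.66, so that the additional regions of the richer daughters lay less often at promoters.

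That is seen directly in where regions fall. At q under 0.05, 14.7% of the regions of the poorer and 12.1% of those of the richer daughter of 3a1 lay at promoters, 44.2% and 15.4% in 3a3, 13.4% and 10.7% in 3a4, and 14.1% and 11.3% in 3a5. At this threshold the richer daughter had the lower share at promoters in all 4 divisions, with differences (richer minus poorer) of -2.68, -28.8, -2.74 and -2.77 percentage points, that of 3a3 standing apart. At q under 0.01 the poorer and richer daughters had 48.3% and 32.2% in 3a1, 41.5% and 30.1% in 3a4, and 44.0% and 26.6% in 3a5, wider gaps of the same direction. Division 3a3 turned, with 39.5% in the poorer and 47.1% in the richer daughter. At q under 0.05, intergenic sequence held 44.8% and 48.5%, 25.7% and 44.4%, 45.4% and 47.6%, and 44.8% and 48.2% of the regions of poorer and richer daughters.

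Each division sorts the promoters into those open in the richer daughter alone, in the poorer alone, and in both. Division 3a1 had 4599 promoters open in the richer daughter alone, 588 in the poorer alone and 3009 in both. Division 3a3 had 6241, 163 and 342, division 3a4 had 5634, 744 and 4551, and division 3a5 had 4490, 854 and 4677. Most of what was open in the poorer daughter was therefore open in its sister too: 83.7%, 67.7%, 85.9% and 84.6% of its promoters. In the opposite direction the shares were 39.6%, 5.20%, 44.7% and 51.0%, and between the near-equal daughters 73.7% and 69.3%. Without regions at positions shared with other cells, the poorer daughter had 39.0%, 30.4%, 47.7% and 45.4% of its promoters open in its sister.

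Not being open is not the same as having no insertions. Among promoters open in the richer daughter alone, 51.6%, 46.0%, 40.3% and 46.4% carried a listed region in the sister that missed the threshold. Among those open in the poorer alone, 66.2%, 58.9%, 61.7% and 58.4% carried one in the richer sister. The latter rested on few insertions: a pileup of 2 in 73.6%, 85.2% and 75.9% of them in divisions 3a1, 3a4 and 3a5. In 3a3, where 2 insertions did not pass, 61.3% had a pileup of 3 at most.

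Insertions at a promoter and sharing between sisters went together. Of promoters with a pileup of 2 in the richer daughter, 28.5%, 2.75%, 30% and 37.3% were open in the poorer one. At a pileup of 4 the shares were 47.4%, 9.35%, 53.6% and 59.0%. At 7 to 9 insertions they were 70.6%, 15.5%, 76.2% and 85.2%. Counting any listed region in the poorer daughter as present, 95.6%, 74.6%, 95.4% and 97.2% of the promoters with 7 to 9 insertions in the richer daughter had one. Promoters of high pileup that were bare in the sister were thus rare outside 3a3.

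**Figure D3:**
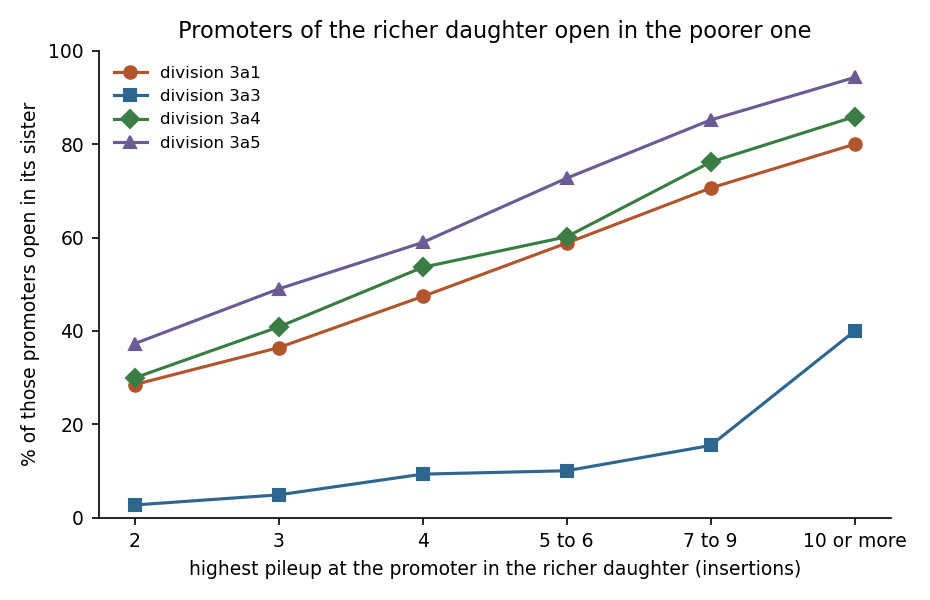
Share of the open promoters of each richer daughter that were open in its sister, by the highest pileup at the promoter in the richer daughter. Lines are the 4 divisions. The share rises with pileup in each division, from 2.75% to 37.3% at a pileup of 2 to 15.5% to 85.2% at 7 to 9, and is lowest in division 3a3. The last class, of 10 or more, holds 20, 5, 78 and 35 promoters.

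As many regions were then taken from the richer list as its sister has. When the regions were drawn at random, the richer daughter alone had 1797 promoters in 3a1, the poorer alone 2394 and both 1203. In 3a3 the numbers were 151, 498 and 7, in 3a4 2285, 3384 and 1911, and in 3a5 2079, 3275 and 2256. At this threshold the surplus of promoters open in the richer daughter alone had turned into a surplus in the poorer daughter in all 4 divisions. In 3a3 it did not turn at q under 0.01, with 178 in the richer alone and 154 in the poorer alone, nor at a pileup of at least 3, with 706 in each. The exact expectation over all such draws, with 1746.6 and 2434.1 promoters open in the richer and the poorer daughter alone in 3a1, was close to the draw shown. In 3a3 it was 164.6 and 495.9, in 3a4 2251.9 and 3400.9, and in 3a5 2118.1 and 3252.2.

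The direction depended on which regions were kept. When the richer list was shortened to its regions of lowest q instead, the richer daughter alone had 2568 promoters and the poorer alone 1370 in 3a1. In 3a3 these were 573 and 437, in 3a4 3376 and 1694, and in 3a5 2416 and 2121. Of the promoters open in a single sister, the richer daughter thus held 42.9%, 23.3%, 40.3% and 38.8% after random drawing and 65.2%, 56.7%, 66.6% and 53.3% with its strongest regions. In the near-equal division the share was 49.1% and 49.7%. Leaving out regions at shared positions before the random drawing gave 41.2%, 40.3%, 34.1% and 37.2%.

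**Figure D4:**
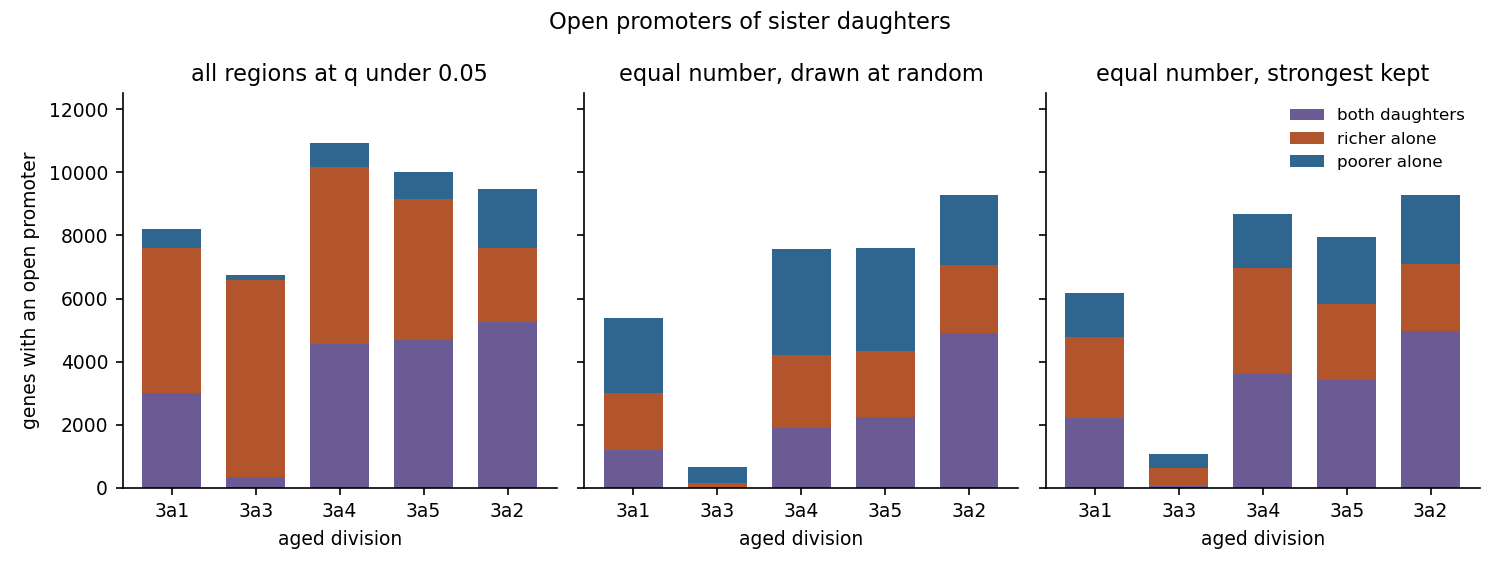
Genes with a promoter open in both daughters, in the richer alone or in the poorer alone, for each aged division, with all regions at q under 0.05 and with the richer list reduced to the number of regions of its sister at random or by lowest q. Bars are stacked counts. In the 4 unequal divisions richer alone outnumbers poorer alone with all regions and with the strongest, and the opposite holds after random drawing. In the near-equal division the strongest regions give 2139 and 2162.

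Across divisions, few promoters kept to 1 kind of daughter. Among all 26180 genes, 13321 were open in none of the 8 daughters and 94 in all 8. The number open in the richer daughter alone was 11613 in at least 1 division, 6634 in at least 2, 2355 in at least 3 and 362 in all 4. For the poorer daughter alone the numbers were 2129, 211, 9 and 0. Neighbouring genes can share a region between their starts, and joining such genes leaves 313 of the 362, 76 of the 94 and all 9.

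Of the 21000 protein-coding genes, 331 (1.58%) were open in the richer daughter alone in all 4 divisions and 2107 (10%) in at least 3. In the poorer daughter alone, 192 (0.914%) were open in at least 2 divisions and 9 (0.0429%) in at least 3. In both daughters, 79 (0.376%) were open in all 4 divisions and 1251 (5.96%) in at least 3. After random drawing, 60 (0.286%) were open in the richer daughter alone in at least 3 divisions and none in all 4. For the poorer daughter alone the number in at least 3 divisions was then 359 (1.71%). With the strongest regions instead, 313 (1.49%) were open in the richer alone and 113 (0.538%) in the poorer alone in at least 3 divisions. These shares serve as the background for the gene lists below.

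Single divisions weigh on these counts. With 3 of 3 divisions asked for in place of 4 of 4, the 362 genes open in the richer daughter alone became 899, 854, 780 and 908 without 3a1, 3a3, 3a4 and 3a5. The 94 genes open in both daughters became 171, 1258, 128 and 115, so that the poorer daughter of 3a3 alone kept over 1000 promoters from being open in all 8 cells. The 9 genes open in the poorer daughter alone became 0, 9, 0 and 0, because all 9 had their calls in divisions 3a1, 3a4 and 3a5. After random drawing, the 69 genes of any kind open in the richer daughter alone in at least 3 divisions became 2, 62, 1 and 4, and the 407 open in the poorer alone became 79, 314, 65 and 51. With regions at shared positions left out, 66 genes were open in the richer daughter alone and 6 in both daughters in all 4 divisions. The number open in the poorer daughter alone in at least 3 divisions rose from 9 to 37.

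Before the genes are taken in turn, the promoter sequences of 8 of them show what the classes look like in bases. They were picked from the genes described below: Pgk1, Eno1 and Runx1 were open in both daughters of at least 3 divisions, Tesk1 and Jak1 in the richer alone in at least 3, Tomm22 and Tuba4a in the poorer alone in 3, and Cdc42 is the gene the study turns on. The sequences are from RefSeq, build GRCm38.p6, and run 5′ to 3′ on the strand of the gene, from 250 bases before the start of a transcript to 20 after it. Capitals mark matches on either strand to any of 10 short motifs that were searched.
Pgk1, chrX:106186850-106187119, plus strand: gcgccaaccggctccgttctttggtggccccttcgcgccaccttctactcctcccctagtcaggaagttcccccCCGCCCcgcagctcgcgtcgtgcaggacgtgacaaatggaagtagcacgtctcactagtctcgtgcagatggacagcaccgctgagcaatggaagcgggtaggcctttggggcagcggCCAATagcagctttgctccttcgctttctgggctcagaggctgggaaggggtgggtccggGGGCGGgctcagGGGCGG
Eno1, chr4:150236458-150236727, plus strand: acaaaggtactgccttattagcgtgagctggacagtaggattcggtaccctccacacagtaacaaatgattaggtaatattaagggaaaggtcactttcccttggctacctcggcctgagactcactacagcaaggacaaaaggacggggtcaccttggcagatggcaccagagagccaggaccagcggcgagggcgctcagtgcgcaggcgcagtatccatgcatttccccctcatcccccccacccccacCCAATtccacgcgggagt
Runx1, chr16:92697310-92697579, minus strand: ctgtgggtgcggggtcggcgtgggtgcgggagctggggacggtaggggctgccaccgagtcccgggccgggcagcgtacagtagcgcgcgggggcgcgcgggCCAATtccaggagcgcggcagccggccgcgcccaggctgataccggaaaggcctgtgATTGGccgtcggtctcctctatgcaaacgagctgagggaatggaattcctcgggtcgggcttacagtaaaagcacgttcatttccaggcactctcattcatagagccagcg
Tesk1, chr4:43442027-43442296, plus strand: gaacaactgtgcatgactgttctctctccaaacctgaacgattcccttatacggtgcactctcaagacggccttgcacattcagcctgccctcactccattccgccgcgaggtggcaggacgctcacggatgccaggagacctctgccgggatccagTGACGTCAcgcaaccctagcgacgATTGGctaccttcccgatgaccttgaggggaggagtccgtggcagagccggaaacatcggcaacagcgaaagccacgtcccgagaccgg
Jak1, chr4:101265204-101265473, minus strand: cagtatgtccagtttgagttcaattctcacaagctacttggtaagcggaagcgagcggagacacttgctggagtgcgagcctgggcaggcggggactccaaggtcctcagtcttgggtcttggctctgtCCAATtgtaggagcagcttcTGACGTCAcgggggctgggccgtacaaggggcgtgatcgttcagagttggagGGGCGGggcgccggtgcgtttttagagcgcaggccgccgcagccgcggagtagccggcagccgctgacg
Tomm22, chr15:79670618-79670887, plus strand: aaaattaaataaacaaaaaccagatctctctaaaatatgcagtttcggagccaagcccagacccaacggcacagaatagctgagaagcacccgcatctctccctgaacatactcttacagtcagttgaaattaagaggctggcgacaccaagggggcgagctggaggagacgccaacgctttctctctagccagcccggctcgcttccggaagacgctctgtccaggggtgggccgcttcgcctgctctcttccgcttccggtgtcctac
Tuba4a, chr1:75219275-75219544, minus strand: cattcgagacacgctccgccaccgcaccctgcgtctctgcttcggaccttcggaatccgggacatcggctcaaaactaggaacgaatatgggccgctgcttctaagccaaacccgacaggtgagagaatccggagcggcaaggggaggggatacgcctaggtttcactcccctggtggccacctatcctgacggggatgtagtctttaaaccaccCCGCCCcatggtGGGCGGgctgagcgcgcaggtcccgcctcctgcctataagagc
Cdc42, chr4:137357740-137358009, minus strand: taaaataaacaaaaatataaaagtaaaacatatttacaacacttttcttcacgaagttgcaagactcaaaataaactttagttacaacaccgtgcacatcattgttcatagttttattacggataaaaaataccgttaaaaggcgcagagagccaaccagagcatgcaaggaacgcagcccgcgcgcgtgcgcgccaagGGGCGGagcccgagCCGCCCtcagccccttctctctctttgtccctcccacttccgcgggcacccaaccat

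Regions covered the stretch shown in all 8 daughters for Pgk1, in 7 for Runx1, in 4 for Tesk1 and Tuba4a, and in 3 for Eno1, Jak1, Tomm22 and Cdc42. The regions of Eno1 that made its promoter open in the remaining daughters lay elsewhere within 1000 bp of a start. In these windows the Sp motif GGGCGG occurs 3 times in Pgk1, and the NFY motif CCAAT occurs in Pgk1, Eno1, Runx1, Tesk1 and Jak1. The CRE motif TGACGTCA occurs in Tesk1 and Jak1. No match was found in Tomm22, and Tuba4a and Cdc42 hold the Sp motif alone.

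Base composition was compared over the promoters of the classes, as a description. The table of promoters holds 1034 of the 1251 protein-coding genes open in both daughters in at least 3 divisions (82.7%), 1711 of the 2107 open in the richer alone (81.2%), 161 of the 192 open in the poorer alone in at least 2 (83.9%) and 16853 of all 21000 (80.3%). Median GC content over 300 bases around the start was 63.7%, 61.7% and 61.7% in the classes, and 56.7% over all protein-coding genes. The share with an observed to expected CpG ratio above 0.6 was 81.4%, 73.3% and 69.6%, against 49.7% over all. Promoters open in the richer daughter alone and in the poorer alone thus had the same median GC content.

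Short motifs were counted in the same promoters, and no difference between classes was tested. The Sp motif was found in 75.1% of the promoters open in both, 65.6% of those open in the richer alone, 67.1% of those open in the poorer alone and 47.7% of all promoters of the same length. The NFY motif was found in 47.2%, 39.2% and 32.9%, against 39.3% of all. The ETS motif CCGGAAGT was found in 8.41%, 8.01% and 8.70%, against 5.45%. The RUNX motif TGTGGT stood lower than in all promoters, with 11.3%, 12.7% and 7.45% against 14.5%. So did the GATA motif AGATAA, with 4.93%, 6.25% and 4.97% against 9.88%, unlike the ETS motif.

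The other motifs searched are given in the same order. The E-box CACGTG was found in 11% of promoters open in both, in 10.5% and 11.2% of those open in the richer and the poorer alone, and in 8.11% of all. The CRE motif was found in 3.58%, 3.86% and 2.48%, against 2.42%, and the NRF1 motif GCATGCGC in 5.03%, 4.85% and 4.35%, against 3.73%. The AP-1 motif TGANTCA was found in 4.93%, 4.97% and 5.59%, against 7.20%, and the E2F motif GGCGGGAA in 5.03%, 3.86% and 4.97%, against 2.99%. The E2F letters overlap those of the Sp motif in part. The part that base composition has in these shares was not tested, and a match of letters is no binding site.

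Genes open in all 8 daughters are the common ground of these divisions. The 10 protein-coding genes with the highest value of their lowest pileup were Pgk1, Hexdc, Ogfod3, Cep72, Elf2, Eno1, Hnrnpa3, Kbtbd8, Otud4 and Pkmyt1. Pgk1, the phosphoglycerate kinase of glycolysis, stood far above the rest. Its pileup was 36 in the poorer and 86 in the richer daughter of 3a1, 46 and 53 in 3a3, 32 and 95 in 3a4, and 30 and 100 in 3a5. The richer daughter was higher in each division, least so in 3a3, and the near-equal daughters had 78 and 74. Where pileups this high in a single cell come from was not tested, and they are not read as a degree of openness.

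Eno1, the enolase that acts later in glycolysis, had pileups of 5 and 8, 5 and 5, 4 and 9, and 5 and 6 in poorer and richer daughters in the same order. Hnrnpa3, an RNA-binding protein of the spliceosomal family, had 9 and 8, 4 and 8, 7 and 10, and 5 and 10. Elf2, an ETS transcription factor of blood cells among others, had 4 and 6, 5 and 6, 5 and 7, and 6 and 10. Poorer and richer daughters overlapped in pileup for all 3 genes, unlike for Pgk1.

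The remaining genes are given by their range over the 8 daughters. Otud4, a deubiquitinase, ranged from 4 to 8, and Kbtbd8, an adaptor of a ubiquitin ligase, from 4 to 5. Pkmyt1, a kinase that holds back entry into mitosis, ranged from 4 to 10, and Cep72, a protein of the centrosome's satellites, from 4 to 9. Hexdc, a hexosaminidase, and Ogfod3 start next to each other on chromosome 11 and share the same region, with a pileup of 5 to 8. With regions at shared positions left out, the 10 genes kept 23 of 40 calls in richer and 32 of 40 in poorer daughters. Otud4 kept all 8 of its calls, Elf2, Hnrnpa3 and Kbtbd8 kept 7 each, and Pgk1 kept 2, in 3a1A and 3a3A.

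After random drawing no protein-coding gene was open in the richer daughter alone in all 4 divisions, so the 10 with the highest summed pileup among those in at least 3 are named: Zfp438, Tesk1, Smtn, Zdhhc20, Rhpn2, Slc25a28, Slc43a3, Etfb, Jak1 and Mbd1. Before drawing, the first 8 were open in the richer daughter alone in all 4 divisions and the last 2 in 3. Their pileups in the richer daughters lay between 2 and 7. The zinc finger gene Zfp438 had 7 in 3a1, 3 in 3a3, 7 in 3a4 and 5 in 3a5. Tesk1, a kinase that acts on the actin regulator cofilin, had 3, 3, 7 and 6.

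For some of these genes a closed promoter in the poorer daughter still had insertions. For Zfp438 the 4 poorer daughters listed regions with 2, 2, 2 and 3 insertions that missed the threshold, and for Tesk1 1, 1, 2 and 2. Zdhhc20, a palmitoyltransferase, had 3, 4, 5 and 6 insertions in the richer daughters and listed regions of 1, 2 and 2 in 3 of the poorer ones. Smtn, an actin-binding protein, had 3, 4, 5 and 6 in the richer daughters and a listed region in 3a1A alone among the poorer.

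Jak1, the kinase that several cytokine receptors use, was open in the richer daughters of 3a1, 3a4 and 3a5 with 4, 5 and 4 insertions. In 3a3 neither daughter was open, with a listed region of 2 insertions in the richer. The poorer daughters of 3a1, 3a4 and 3a5 listed regions of 2, 1 and 2 insertions at Jak1 that missed the threshold. Rhpn2, a scaffold protein, Slc25a28, which imports iron into mitochondria, Slc43a3, a carrier of purine bases, and Etfb, which passes electrons to the respiratory chain, had 3 to 5 insertions in each richer daughter. Below the threshold, the poorer daughters of 3a1, 3a3, 3a4 and 3a5 listed 2, 2, 1 and 1 for Rhpn2 and 2 each for Slc25a28. For Slc43a3 they listed 1, 2, 0 and 1, and for Etfb 1, 1, 2 and 2. Mbd1, which binds methylated CpG, had 2 to 4 in the richer daughters and was open in the poorer daughter of 3a5 as well. Of 39 calls of these genes in richer daughters, 17 stood without the regions at shared positions. Zdhhc20 kept all 4 and Tesk1 3, whereas Slc25a28 and Etfb kept none.

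The draw by lowest q, whose genes named here were chosen after their values were seen, gave 18 protein-coding genes open in the richer daughter alone in all 4 divisions. Among them, Slc43a3 is the only gene also named from the random draw. Wee1, the kinase that restrains Cdk1, had 7, 6, 6 and 6 insertions in the richer daughters of 3a1, 3a3, 3a4 and 3a5, and Mavs, an adaptor of antiviral signalling, had 8, 5, 6 and 6. Below the threshold, the poorer daughters listed 2, 0, 2 and 2 insertions for Wee1 and 2 in each division for Mavs. Cdt1, which licenses replication origins, had 4, 5, 5 and 5 in the richer daughters, and the poorer daughters listed a region of 2 insertions in each division. Srm, the spermidine synthase, had 4 in every richer daughter and likewise a region of 2 in every poorer one. S1pr2, a receptor for sphingosine 1-phosphate, had 3, 5, 4 and 5 in the richer daughters. The poorer daughters listed 2, 0, 1 and 2 for it, below the threshold.

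Genes open in the poorer daughter alone go against the number of regions and were few at q under 0.05. In at least 3 divisions they numbered 9, against 37 without shared positions and 61 with every listed region. The 9 with calls in 3 divisions were Fbxl18, Bloc1s2, Bspry, Castor1, Gsta4, Hacd2, Tomm22, Tpp1 and Tuba4a, all in 3a1, 3a4 and 3a5. Fbxl18, an F-box protein, had pileups of 3, 2 and 3 in these poorer daughters, and the other 8 had 2 in each. Next in order came Cndp2, a dipeptidase, open in the poorer daughter alone in 3a3 and 3a4 with 4 and 3 insertions, in both daughters of 3a1 and in the richer alone in 3a5.

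Some of these genes had regions of equal pileup in the richer sister that did not pass. Tomm22, the receptor of the mitochondrial import machinery, listed a region of 2 insertions in all 10 aged cells, yet passed q under 0.05 only in the 3 poorer daughters and in 3a2A and 3a2B. Castor1, an arginine sensor, and Hacd2, which takes part in fatty acid elongation, likewise had listed regions of 2 insertions in all 4 richer daughters. Tuba4a, an alpha-tubulin, had no listed region in the richer daughters of 3a1, 3a4 and 3a5 but a pileup of 3 in the richer daughter of 3a3. Bloc1s2, a subunit of a complex for lysosome-related organelles, had a single insertion in 3a4A and no region in the other 3 richer daughters. Without regions at shared positions, 3 of the 30 calls of the 10 genes in poorer daughters remained, and 6 of the genes had no call left in any daughter.

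The gene lists were read against these backgrounds, and their members were chosen with earlier results of these data known. The 15 lists name 418 genes, of which 417 were found among the transcripts. Counts below are of promoters open in both daughters in at least 3 divisions and in the richer or the poorer daughter alone, and the plot of shares per list shows each daughter. Over all protein-coding genes, 32.3% and 15.3% were open in the richer and the poorer daughter of 3a1, 28.0% and 2.16% in 3a3, 42.9% and 22.5% in 3a4, and 38.8% and 23.5% in 3a5. The median protein-coding gene was open in 1 of the 8 daughters, and 46.1% were open in none. Shares of the lists are to be read beside the 5.96% of protein-coding genes open in both daughters and the 10% open in the richer alone in at least 3 divisions, and the 0.914% open in the poorer alone in at least 2. For both daughters the background was 1134 (5.40%) in all 3 divisions without 3a3, 868 (4.13%) with the strongest regions and 64 without shared positions. No difference between a list and its background was tested.

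**Figure D5:**
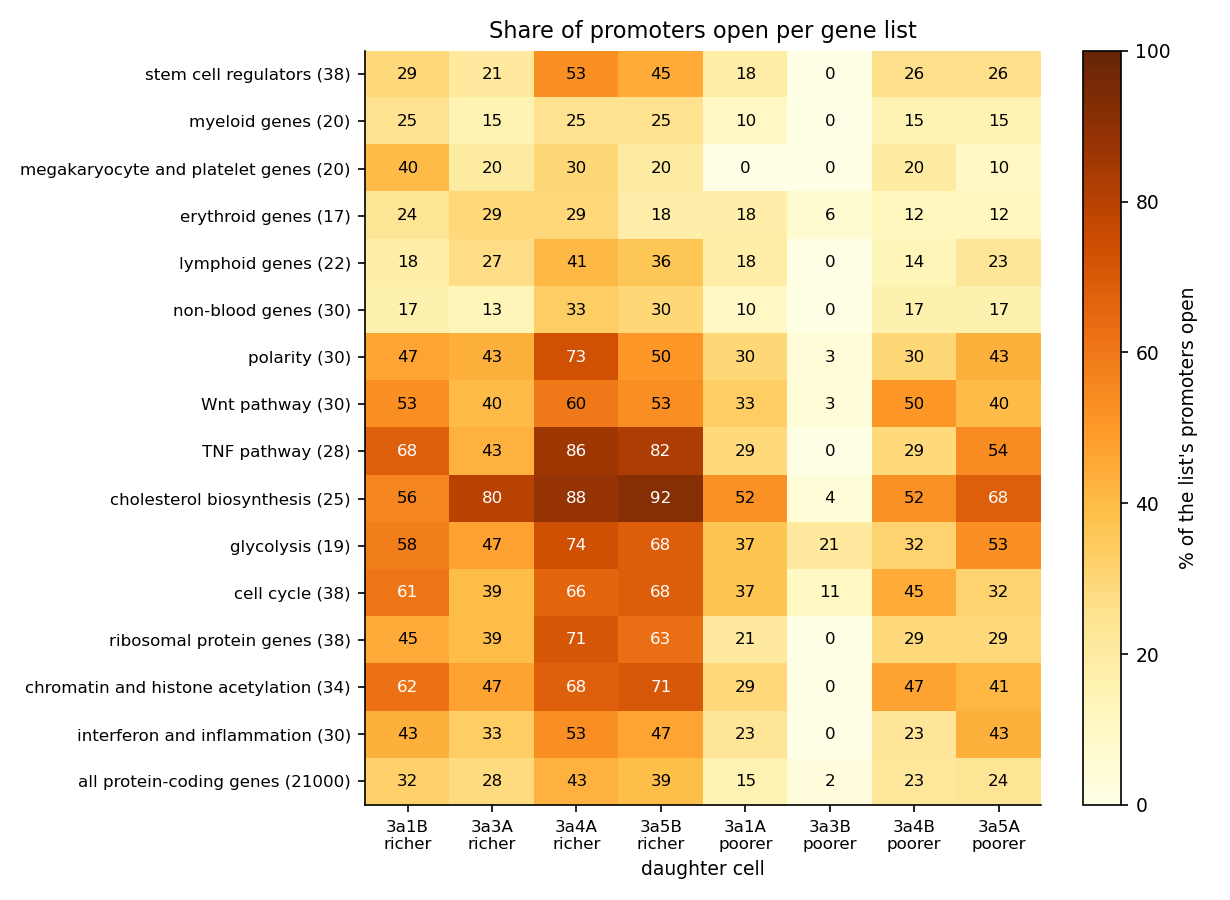
Share of the promoters of each gene list open in each daughter, in percent, with the number of genes found in parentheses and all protein-coding genes in the last line. The 4 richer daughters stand on the left and the 4 poorer on the right. Lists of housekeeping pathways lie above the last line in most daughters. Lineage lists lie near or below it in most, with the megakaryocyte list at 40% against 32.3% in 3a1B. Daughter 3a3B is low in most lists, but has 21.1% of glycolysis and 10.5% of cell cycle genes open, against 2.16% of protein-coding genes.

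Polarity and its GTPases come first, because the study builds on them. Cdc42 (chromosome 4, minus strand) was open in both daughters of 3a1, in the richer alone in 3a3 and 3a4, and in neither daughter of 3a5. Each call rested on a pileup of 2, as did those in both near-equal daughters. The poorer daughter of 3a3 and the richer of 3a5 listed a region of 2 insertions that missed the threshold, and 3a4B and 3a5A listed none. With regions at shared positions left out, the call in 3a4A was the only one of the 4 unequal divisions. A pileup of 2 is the lowest that passed in any cell, so these calls rest on the fewest insertions a call can have.

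Among the 30 polarity genes, Llgl2, Numb and Rac2 were open in both daughters in at least 3 divisions (10%, against 5.96% of protein-coding genes). Numb, a fate determinant that restrains Notch, had 5, 4, 6 and 6 insertions in the richer daughters and 3, 0, 3 and 4 in the poorer, in the order 3a1, 3a3, 3a4 and 3a5. Llgl2, of the Lgl family that opposes apical polarity proteins, had 7, 5, 5 and 6 in the richer and 3, 0, 3 and 4 in the poorer daughters. For Rac2, the blood-restricted Rac GTPase, the values were 4, 2, 5 and 3, and 2, 0, 2 and 4. The single missing daughter was 3a3B for all 3 genes. Without shared positions, Llgl2 was still open in both daughters of 3 divisions, Rac2 of 2 and Numb of 1.

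Pak2, a kinase that Cdc42 activates, was open in the richer daughter alone in 3 divisions (3.33% of the list, against 10% of protein-coding genes). No gene of the list was open so in all 3 divisions without 3a3 or in 3 with the strongest regions, and 2 were without shared positions. Vangl2, a core protein of planar polarity, was the only member open in the poorer daughter alone in at least 2 divisions, with 3 insertions in 3a4B and 2 in 3a5A. Crb3, Pard3, Pard6g, Rac1, Rhoa and Rhoh were open in no daughter. The summed pileup of the list was 59 against 30 in richer and poorer daughters of 3a1, 40 against 3 in 3a3, 89 against 26 in 3a4 and 65 against 38 in 3a5.

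Of the Wnt pathway the list holds ligands, receptors and the parts downstream. Wnt5a (chromosome 14, plus strand) was open in the richer daughter alone in 3a1 and in the poorer alone in 3a4, with a pileup of 2 each time, and in both near-equal daughters. In 3a4 the richer sister also listed a region of 2 insertions at Wnt5a, which missed the threshold. The ligand Wnt4 had no listed region in any daughter. Its counterpart Wnt5a kept the call in 3a4B and lost that in 3a1B once regions at shared positions were left out. Of 30 genes, Fzd1, Fzd5, Fzd7, Gsk3b and Lrp6 were open in both daughters in at least 3 divisions (16.7%, against 5.96% of protein-coding genes). The number was 4 without 3a3 and 2 with the strongest regions. Gsk3b, the kinase that marks beta-catenin for destruction, had 8, 7, 6 and 7 insertions in the richer and 6, 0, 3 and 5 in the poorer daughters.

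The frizzled receptors differed from gene to gene. Fzd7 had 5, 3, 6 and 7 insertions in the richer and 2, 0, 7 and 5 in the poorer daughters, so that the poorer cell was the higher one in 3a4. Fzd8 was open in the richer daughter alone in all 4 divisions, with 4, 2, 4 and 4, and had no listed region in any poorer daughter. Lrp6, the coreceptor, had a pileup of 2 in each of its 7 open daughters. Once such regions at shared positions were dropped, Gsk3b alone of the list was open in both daughters of 3 divisions, and Lrp6 in no daughter.

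The stem cell list holds factors and receptors of HSCs. Of 38 genes, Hlf and Runx1 were open in both daughters in at least 3 divisions (5.26%, against 5.96% of protein-coding genes), and 14 (36.8%, against 46.1%) were open in no daughter. Runx1, without which HSCs do not arise in the embryo, had 5, 3, 5 and 5 insertions in the richer and 3, 2, 4 and 4 in the poorer daughters. The 2 in 3a3B missed the threshold. Hlf, a factor that marks HSCs, had 8, 3, 6 and 8, and 5, 1, 5 and 3, of which the 1 in 3a3B missed the threshold. Both genes were closed in 3a3B alone. Without shared positions Runx1 was open in both daughters of 2 divisions and Hlf of 1.

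Foxo3, Tcf15 and Zfx, factors tied to quiescence or self-renewal, were open in the richer daughter alone in 3 divisions, and in none of them did this hold without shared positions. Gata2 was open in the poorer daughter alone in 3a1 and 3a4, with 5 and 4 insertions, and in the richer alone in 3a5, with 5. In 3a1 and 3a4 the richer sister listed regions of 3 and 4 insertions at Gata2 that missed the threshold. Kit, Ly6a, Procr, Slamf1, Mecom, Erg, Lmo2 and Hoxa9, markers or factors of HSCs, were open in no daughter. The promoter calls therefore hold none of these named genes, but the median gene of the whole list was open in 2 daughters, against 1 for protein-coding genes. In the richer daughters 28.9%, 21.1%, 52.6% and 44.7% of the list were open, against 32.3%, 28.0%, 42.9% and 38.8% of protein-coding genes. The summed pileup of the list was 45 and 23, 23 and 0, 82 and 29, and 65 and 31 in richer and poorer daughters.

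The lineage lists come next. In the myeloid list of 20, Csf3r, the receptor for the G-CSF in the medium, was open in both daughters in 3 divisions (5%, against 5.96%), Cebpa in the richer alone in 3 (5%, against 10%), and 14 genes (70%) in no daughter, Mpo, Elane, Csf1r and Irf8 among them. The summed pileup of the list was 16 and 8, 9 and 0, 19 and 7, and 16 and 8. Csf3r had 5, 3, 5 and 3 insertions in the richer and 5, 2, 2 and 2 in the poorer daughters. The 2 in 3a3B missed the threshold. Spi1, the factor of myeloid and lymphoid fate, was open in both daughters of 3a1 and 3a4 and in the richer alone in 3a3 and 3a5.

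Of 20 megakaryocyte genes none was open in both daughters in at least 3 divisions. Plek and Selp, both of platelets, were open in the richer daughter alone in 3 (10%, the same as the 10% of protein-coding genes), and Vwf and Itga2b were open in no daughter. The number was 1 of 20 without 3a3, 1 with the strongest regions and 0 without shared positions. For protein-coding genes the same settings gave 764 (3.64%), 313 (1.49%) and 524 of 21000. The summed pileup was 25 and 0, 13 and 0, 24 and 11, and 10 and 5. Pf4, a platelet chemokine, had the highest pileup of the list over the 8 daughters, with 6, 4, 7 and 4 in the richer and 2, 2, 4 and 3 in the poorer daughters. The values of 2 in 3a1A and 3a3B missed the threshold.

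Of 17 erythroid genes found, Tfrc and Tmcc2 were open in both daughters in 3 divisions (11.8%, against 5.96%), and 10 (58.8%) in no daughter, Klf1 and Epor among them. Tfrc, the transferrin receptor that brings iron into cells, had 8, 5, 7 and 7 insertions in the richer and 4, 2, 3 and 3 in the poorer daughters. The 2 in 3a3B missed the threshold. The summed pileup of the list was 22 and 11, 16 and 3, 20 and 5, and 12 and 5.

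The lymphoid list of 22 had Gata3 open in both daughters in 3 divisions (4.55%, against 5.96%), Flt3 in the richer alone in 3 (4.55%, against 10%), and 11 (50%) in no daughter, with Il7r, Rag1, Rag2, Pax5 and Cd3e among them. Its summed pileup was 12 and 10, 14 and 0, 32 and 9, and 28 and 12. In the list of 30 genes of other tissues, Syn1 was open in both daughters in 3 divisions (3.33%, against 5.96%), Neurog2 in the richer alone in all 4, Ins2 in the poorer alone in 2, and 19 (63.3%) in no daughter. The summed pileup of these was 13 and 7, 8 and 0, 25 and 10, and 21 and 12. The erythroid number fell to 1 without 3a3 and 1 with the strongest regions, and the lymphoid to 0 with the strongest. Without shared positions no gene of these lists was open in both daughters, or in the richer alone, in at least 3 divisions. Of each lineage list, as of the genes of other tissues, at most 2 genes were open in both daughters in at least 3 divisions.

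Signalling and metabolic lists follow. In the TNF pathway, Cyld, Ikbkg and Otud7b were open in both daughters in 3 divisions (10.7% of 28, against 5.96%), and Birc2, Ripk1, Rnf31, Tnfrsf1a, Tradd and Usp4 in the richer alone in at least 3 (21.4%, against 10% of protein-coding genes). Tnfrsf1a, the main receptor, had 5 insertions in each richer daughter and was open in a single poorer one, 3a4B, with 2. Ripk1, the kinase next to it, had 4, 1, 4 and 4 in the richer daughters, of which the 1 in 3a3A missed the threshold, and was open in no poorer one.

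Tradd, the adaptor, was open in the richer daughters of the same 3 divisions with 3, 3 and 4. Usp4, a deubiquitinase, was open in the richer alone in all 4 divisions with 2, 2, 2 and 3, and in 3 of them after random drawing. Tnf itself and Tnfrsf1b were open in no daughter. Without 3a3, 3 of the 28 genes were open in the richer daughter alone in the 3 divisions, against 764 (3.64%) of protein-coding genes. With the strongest regions it was 2 against 313 (1.49%), and with shared positions left out 3 against 524 of 21000. The background thus fell along with the list. The share of the list open was 67.9% and 28.6%, 42.9% and 0%, 85.7% and 28.6%, and 82.1% and 53.6% in richer and poorer daughters.

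Cholesterol biosynthesis was the list most often open in both daughters. Dhcr7, Ebp, Hmgcs1, Hsd17b7, Insig1, Lss and Sqle, 28% of 25 genes, were open in both in at least 3 divisions, against 5.96% of protein-coding genes, and no gene of the list was closed in all daughters. The median gene was open in 6 of 8 daughters. Sqle, the squalene epoxidase, had 6, 3, 6 and 6 insertions in the richer and 2, 0, 4 and 5 in the poorer daughters. Hsd17b7, a later enzyme, had 3, 3, 4 and 6, and 6, 2, 3 and 3, of which the 2 in 3a3B missed the threshold.

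Insig1, which holds the pathway's regulator in the endoplasmic reticulum, had 2, 3, 3 and 4 in the richer and 2, 3, 4 and 3 in the poorer daughters. The 2 in 3a1B missed the threshold, and Insig1 was among the few list genes open in 3a3B. Mvd and Srebf1 were open in the richer alone in 3 divisions, and neither of them in all 3 when 3a3 was left out. With shared positions left out no gene of the list was open in both daughters in 3 divisions, and the same holds for all but 64 protein-coding genes.

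In glycolysis, Pgk1, Eno1 and Gapdh were open in both daughters in at least 3 divisions (15.8% of 19, against 5.96%), the first pair in all 4. Gapdh had 8, 2, 5 and 5 insertions in the richer and 4, 0, 3 and 4 in the poorer daughters. The 2 in 3a3A missed the threshold. Gpi1, Hk1, Ldhb, Pfkp and Slc2a1 were open in the richer alone in 3 divisions (26.3%, against 10% of protein-coding genes). Of these 19 genes 1 was open so in all 3 divisions without 3a3, 2 in at least 3 with the strongest regions and 2 without shared positions. Among the 21000 protein-coding genes these numbers were 764, 313 and 524. Slc2a1, the glucose carrier, had 6, 5, 7 and 6 in the richer daughters and was open among the poorer in 3a1A alone, with 3. Daughters 3a3B, 3a4B and 3a5A listed regions of 2, 2 and 1 insertions that missed the threshold. Pkm was open in the poorer daughter alone in 3a4 and 3a5 at a pileup of 2, while both richer sisters listed 2 or 3 insertions. Pgk1 made up much of the summed pileup of its list, as in 3a5, with 100 of 158 in the richer and 30 of 60 in the poorer daughter.

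Cell cycle genes bear on cells that have just divided. Mcm5 was open in all 8 daughters, and Cdc25a, Mcm4, Mcm6 and Mcm7 in both daughters of 3 divisions (13.2% of 38 in all, against 5.96%). The Mcm proteins form the helicase that opens replication origins. Mcm5 had 4, 4, 5 and 6 insertions in the richer and 3, 3, 4 and 3 in the poorer daughters, and Mcm6 had 7, 7, 8 and 8, and 4, 0, 8 and 4. Apart from the poorer daughter of 3a3, these promoters were open in both sisters. This did not hold without shared positions, where no gene of the list was open in both daughters in at least 3 divisions. In the poorer daughter alone, 5 of the 38 were then open in at least 2 divisions, against 364 of 21000 protein-coding genes. Mcm4 and Mcm6 were among them with 3 divisions and Mcm7 with 2.

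Ccna2, Cdt1, Plk1 and Rb1 were open in the richer daughter alone in at least 3 divisions (10.5%, close to the 10% of protein-coding genes). Without 3a3 the number was 3 of 38, against 764 (3.64%) of protein-coding genes. With the strongest regions it was 1, against 313 (1.49%), and without shared positions 1, against 524 of 21000. Cdkn1b, the inhibitor p27, was open in the poorer alone in 3a3 and 3a4, with 3 and 4 insertions, and in the richer alone in 3a1 and 3a5, with 4 and 3. Such a gene changed sides between divisions and belonged to neither kind of daughter.

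Ribosomal protein genes were often open in the richer daughter alone, by count more than any other of the 15 lists, although the glycolysis list had the higher share. The 9 genes were Rpl10a, Rpl11, Rpl27, Rpl30, Rpl32, Rpl35, Rplp1, Rps20 and Rps27 (23.7% of 38, against 10%), while Rpl26 and Rps2 were open in both daughters in 3 divisions (5.26%, against 5.96%). Rps27 and Rpl30 were open in the richer alone in all 4 divisions, Rps27 with 3, 2, 3 and 3 insertions and Rpl30 with 2, 2, 5 and 2. Single insertions at Rps27 were listed in every poorer daughter. Without 3a3 the number was 6 of 38, against 764 (3.64%) of protein-coding genes. With the strongest regions it was 3, against 313 (1.49%), and with shared positions left out 1, against 524 of 21000.

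Among chromatin genes, Kansl1 and Lmna were open in both daughters in 3 divisions (5.88% of 34, close to the 5.96% of protein-coding genes). Crebbp, Dnmt3b, Hdac1, Kat8, Msl2, Msl3 and Suz12 were open in the richer alone in 3 (20.6%, against 10%). Kat8, the enzyme that acetylates lysine 16 of histone H4, had a pileup of 2 in the richer daughters of 3a1, 3a4 and 3a5 and was open in no poorer one. Its partners in the MSL complex, Msl2 and Msl3, had 7, 5, 6 and 5, and 5, 2, 3 and 3 in the richer daughters.

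Kansl1, of the other complex with Kat8, had 5, 2, 6 and 5, and 2, 0, 3 and 3 in the poorer ones. Sirt3 and Tet2 were open in the poorer alone in 2 divisions (5.88%, against 0.914%), at 2 or 3 insertions. Without shared positions this held for neither. The list then had 1 such gene, against 364 of 21000 protein-coding genes. Left to 3a1, 3a4 and 3a5, 2 of the 34 chromatin genes were open in the richer alone in all 3 divisions, against 3.64% of protein-coding genes. With the strongest regions it was 1, against 1.49%. With shared positions left out none was open so in at least 3, against 524 of the 21000.

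In the interferon list of 30, Ifngr1 and Tgfbr1 were open in both daughters in 3 divisions (6.67%, against 5.96%), and Irf1, Jak1 and Stat3 in the richer alone in 3 (10%, the same as the background). The latter number was 1 without 3a3, 1 with the strongest regions and 0 without shared positions. Among protein-coding genes these numbers were 764 (3.64%), 313 (1.49%) and 524 of 21000. Ifngr1, a receptor chain for interferon gamma, had 4, 4, 6 and 5 insertions in the richer and 3, 0, 3 and 4 in the poorer daughters. The induced genes Isg15, Ifit1, Ifit3, Mx1, Oas2 and Irf7 were open in no daughter, and 11 (36.7%) of the list in none. Ifnar2, Jak2 and Stat2, which carry the signal, were open in none either.

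Whether sisters share promoters beyond what any richer and poorer cell share is a question the choice of daughters did not settle. That choice was made within divisions by the number of regions, not by the promoters that sisters share. The poorer daughter of 3a1 had 83.7% of its open promoters open in its sister and 74.2%, 87.7% and 83.0% in the richer daughters of 3a3, 3a4 and 3a5. For 3a3 the sister held 67.7% and the others 71.9%, 88.9% and 85.0%. For 3a4 it was 85.9% against 71.8%, 65.1% and 82.5%, and for 3a5 84.6% against 72.7%, 66.6% and 88.2%. The richer daughter of 3a4, which had most promoters open, held a larger share than the sister did in each of the other 3 divisions.

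Means were 80.5% for sisters and 78.1% for non-sisters, a ratio of 1.03 (one-sided exact permutation test over 24 assignments of richer to poorer daughters, p = 0.167, with 0.0417 the smallest possible, n = 4 divisions). At q under 0.01, with shared positions kept, the ratio was 1.11 (exact p = 0.0417, the smallest possible). At q under 0.05 with regions at shared positions left out it was 0.976 (exact p = 0.625). Leaving out 1 division gave 1.00 without 3a1, 1.05 without 3a3, 1.04 without 3a4 and 1.03 without 3a5. The excess of sisters over non-sisters was thus small, and it did not hold once shared positions were left out, which by construction takes away what sisters share at identical positions.

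Aged sisters were set beside 5 young divisions of set 3, 3y1, 3y2, 3y3, 3y6 and 3y7, chosen by the same ratio (over 2 at q under 0.01, with at least 100 regions at q under 0.05 in each daughter). The test asks whether what unequal sisters share differs with age. With 4 aged and 5 young divisions there are 126 regroupings, the smallest possible p is 0.00794, and the 4 measures were adjusted together. Each p is two-sided and from an exact permutation test.

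The promoter share of regions, richer minus poorer, was -2.68, -28.8, -2.74 and -2.77 percentage points in the aged divisions and -24.4, -1.08, -0.808, -22.1 and -3.03 in the young. The means were -9.26 ± 13.1 (SD, n = 4) and -10.3 ± 11.9 (SD, n = 5), a difference of 1.03 (exact p = 0.976, adjusted 0.976). Both ages held divisions in which the poorer daughter passed the threshold only from a higher pileup, 3a3 among the aged and 3y1 and 3y6 among the young, and these had the large values. All 9 values were negative at this threshold. At q under 0.01 the direction turned in the same 3 divisions, with 39.5% in the poorer and 47.1% in the richer daughter of 3a3, 40% and 42.4% in 3y1, and 29.1% and 31.4% in 3y6. The 40% in 3y1 rests on only 15 regions of its poorer daughter. The difference between ages turned to -1.16 without 3a1, -1.14 without 3a4, -1.13 without 3a5, -2.50 without 3y1 and -1.93 without 3y6, so its direction rests on single divisions.

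Of the promoters open in the poorer daughter, 80.5% ± 8.55 (SD, n = 4) were open in the richer in aged and 83.1% ± 6.77 (SD, n = 5) in young divisions. The difference was -2.60 percentage points (exact p = 0.635, adjusted 0.976). Single young divisions had 80.7%, 85.0%, 76.0%, 93.8% and 79.9%, so the ages overlapped. Without 3a3 the difference was 1.64, without 3y6 0.0655, and with regions at shared positions left out 5.67 (adjusted exact p = 0.429).

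In the opposite direction, 35.1% ± 20.5 (SD, n = 4) of the promoters of the richer daughter were open in the poorer in aged and 29.4% ± 21.8 (SD, n = 5) in young divisions, a difference of 5.71 (exact p = 0.746, adjusted 0.976). The young divisions had 0.836%, 42.6%, 52.4%, 12.2% and 39.0%, and without 3y1 the difference was -1.43. After random drawing, the richer daughter held 36.3% ± 8.86 (SD, n = 4) and 37.1% ± 9.91 (SD, n = 5) of the promoters open in a single sister. This difference was -0.746 (exact p = 0.929, adjusted 0.976), with young values of 26.9%, 45.2%, 47.2%, 26.4% and 39.6%. It became 3.61 without 3a3, 1.29 without 3y2 and 1.80 without 3y3. With regions at shared positions left out, the differences in promoter share, in the share of the richer daughter's promoters and after drawing were 0.409, 8.03 and -0.940. None of the 4 differences exceeded the spread between divisions of either age, and 4 against 5 divisions could show only large ones.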

How the data were processed

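Regions of single daughter cells were read from the lists of the sample records. The authors trimmed reads with cutadapt 1.9.1, aligned them to mm10 with Bowtie2 and called regions with MACS2 in each cell. The pileup values deposited by the authors are whole numbers of overlapping insertions at the summit, without normalization, and the -log10 q values, as deposited, are adjusted within each cell. Chromosomes 1 to 19, X and Y were used. The members and the gene lists were chosen with earlier results of these data known.

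A promoter was open where a region at q under 0.05 overlapped the window of 1000 bp on either side of the start of any of 45756 RefSeq transcripts of GRCm38.p6. Regions were drawn without replacement with seed 1, and the exact expectation of the draw was computed by the hypergeometric formula. Identical positions were compared by start and end among the 10 aged cells of set 3. Tests were exact permutation tests over divisions, with Benjamini-Hochberg adjustment over the 4 measures of the comparison of ages. Alternatives changed the threshold (q under 0.01, a pileup of at least 3, every listed region), the window (500 and 2000 bp), the seed, the choice of the strongest regions, the regions at shared positions, the young divisions and each division left out. The scripts were tested on simulated data.

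Named genes are protein-coding. Cdc42 and Wnt5a are always named. The others are the 10 with the highest value of their lowest pileup among promoters open in all 8 daughters, the 10 open in the richer daughter alone after drawing with the highest summed pileup, the 10 open in the poorer daughter alone in most divisions, and within each list those open in both or in 1 kind of daughter in most divisions. Genes named beyond this rule are members with a known role or were chosen after their values were seen. Calculations ran in Python (3.11.15) on the packages scipy (1.17.1), pandas (2.3.3) and numpy (2.4.6), and plots were drawn by matplotlib (3.10.9). The daughters of library sets 4 and 5, except as alternatives, are not analysed here.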

Additional observations from a re-analysis of the deposited data

Results flagged for a closer look

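Division 3a3 stood apart from the other 3 unequal aged divisions in 5 values, each far from its neighbours relative to the spread of its group of 4. Chance alone marks about 1 in 20 such groups, and 28 groups were looked at. In its poorer daughter, 44.2% of the regions at q under 0.05 lay at promoters, 25.6% in introns and 25.7% in intergenic sequence. The promoter share of the richer minus that of the poorer daughter was -28.8 percentage points. Of the promoters open in its poorer daughter, 67.7% were open in the sister. All 5 values involve the same cell, 3a3B, which had 965 regions at q under 0.05 and passed that threshold only from a pileup of 3. The cause was not tested.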

How the results depend on the processing

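Counts over 4 divisions depended on the threshold, on the drawing and on regions at shared positions. The 362 promoters open in the richer daughter alone in all 4 divisions were 233 with every listed region and 66 without shared positions. After random drawing the count of 0 was 18 with every listed region, 1 with seed 2 and 19 with the strongest regions. In at least 3 divisions after drawing, an alternative set chosen after seeing the data, 69 became 2 at q under 0.01, 45 at a pileup of at least 3, 314 with every listed region, 11 without shared positions and 348 with the strongest regions. The 9 promoters open in the poorer daughter alone in at least 3 divisions became 1 at q under 0.01, 1 at a pileup of at least 3, 61 with every listed region and 37 without shared positions. After drawing, 407 became 54, 1488 with every listed region, 156 without shared positions and 127 with the strongest. The 94 open in both daughters of all divisions became 6 at q under 0.01, 2692 with every listed region and 6 without shared positions.

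Leaving out 1 division (3 of 3 divisions) gave 780 to 908 for the richer alone, 1 to 62 after drawing, and 1 to 62 against the 69. For the poorer alone it gave 0 to 9 before and 51 to 314 after drawing, and for both daughters 115 to 1258. The lower number of divisions asked for accounts for part of these changes. Windows of 500 and 2000 bp kept every one of these counts within a factor of 1.5, apart from those at 0.

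The ratio of sister to non-sister overlap was 1.11 at q under 0.01 (exact p = 0.0417), 0.976 without shared positions and 1.00 to 1.05 with 1 division left out. Between ages, the difference in promoter share was -6.07 at q under 0.01 and 6.17 with young divisions of sets 3 and 5, ranged from -1.16 to 7.56 with 1 aged division left out and from -2.50 to 3.40 with 1 young division left out. The share of the poorer daughter's promoters open in the richer differed by 2.27 at q under 0.01 and by 5.67 without shared positions, with ranges of -4.43 to 1.64 and -4.37 to 0.0655. The share of the richer daughter's promoters open in the poorer differed by 12.2 with young divisions of sets 3 and 5 and by 1.59 at q under 0.01, and ranged from 0.406 to 15.7 and from -1.43 to 11.4. The share of single promoters in the richer after drawing differed by 3.60 with those divisions and by -2.27 at q under 0.01, with ranges of -2.93 to 3.61 and -3.42 to 1.80. Leaving out young divisions and shared positions in this comparison was chosen after seeing the data. The cause of these changes was not tested. Few insertions limit all calls, since the lowest pileup that passed was 2 in 7 daughters and 3 in 3a3B, and many regions at or above it missed.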
